A study of Mus musculus with 8 samples.

Results

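Heat shock proteins and chaperones were examined as a module of 37 genes in CCR6+ group 3 innate lymphoid cells (ILC3s) with and without the transcription factor Zbtb46. The members were taken by name from the HSP70, HSP90, J-domain, BAG, chaperonin and heat shock factor families and their HSP90 co-chaperones, and the rule itself uses no measured value. They are 37 of the 27179 rows of the count table, and 34 of them were among the 8878 genes with enough counts to be tested. RNA was sequenced from CCR6+ ILC3s, lymphocytes that live in tissue and secrete interleukin 22, which were sorted from the large intestine of C57BL/6 mice at steady state. The Zbtb46 KO group (replicates 5 to 8) came from 4 mice with both copies of Zbtb46 floxed (Zbtb46f/f) and a Cre recombinase active in these cells. The wild type (WT) group (replicates 1 to 4) came from 4 Zbtb46f/f mice, which carry the same floxed alleles. The labels name Cre in the KO group alone, so an effect of Cre itself and the loss of Zbtb46 cannot be told apart. The comparison addresses how the transcriptome of these cells differs when Zbtb46 is deleted.

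Chaperones bind unfolded stretches of other proteins and release them for another attempt at folding. HSP70 proteins do this in a cycle of ATP hydrolysis that J-domain proteins (the Dnaj genes) start and that nucleotide exchange factors (the BAG proteins and the HSP110 proteins Hsph1 and Hspa4) end, and HSP90 proteins take over clients such as kinases and steroid receptors at a later step. Heat and other stresses that unfold proteins activate the factor HSF1, which binds inverted repeats of the unit GAA, called heat shock elements, and switches on the inducible members. Chaperones of the endoplasmic reticulum follow a separate stress pathway and are abundant in secretory cells. By these roles the members were put into 12 heat-inducible, 9 constitutive, 6 endoplasmic reticulum, 4 mitochondrial and 4 restricted genes (the testis-enriched or little-expressed Hspa1l, Hspa2, Hspa4l and Bag2) and 2 heat shock factors.

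Library totals were 25328231 to 33760743 counts. Of the 37 members, 33 to 35 had at least 1 count in a library, and 25 to 31 reached 10 CPM (counts scaled to library size with TMM factors). The lowest of these counts, 25, was that of KO 8. A count of 0 allowed up to 0.0856 to 0.124 CPM, taken as 3 counts and covering counting error only. Zbtb46 itself had 4.82, 0.532, 3.19 and 0.125 CPM in KO 5 to 8, against 8.02, 48.8, 88.9 and 26.6 CPM in WT 1 to 4, so every KO library lay below every WT library (edgeR unadjusted p 0.0124, adjusted p 0.885). Among genes that define ILC3s and the sort gate, Il22 had 13570.4 to 18953 CPM in KO and 15031 to 25512 CPM in WT, Il7r 1346 to 2085 CPM in KO and 1596 to 2136 CPM in WT, and Kit 770 to 1389 CPM in KO and 649 to 1178 CPM in WT. The lymphotoxin gene Ltb had 38.7 to 61.8 CPM in KO and 63.7 to 199 CPM in WT, without overlap (edgeR unadjusted p 0.00853, adjusted p 0.772). Thy1 had 259 to 422 CPM in KO and 128 to 263 CPM in WT (edgeR unadjusted p 0.0401, adjusted p 1). On the first principal component of the tested genes (19.5% of the variance), KO 6 lay at 187.7 with the other KO libraries at 1.6 to 14.7. WT 1 lay at -166.0 with the other WT libraries at -25.7 to -6.1. The second component (18.9%) had WT 1 at 163.1 and KO 6 at 136.7, on the same side, and the other libraries at -64.1 to -23.7. The 8 macrophage and neutrophil markers, which the gate should remove, summed to 335 and 736 CPM in KO 5 and KO 7. They summed to 4.07 to 11.7 CPM in KO 6 and 8 and 1.08 to 43.2 CPM in WT. S100a8 and S100a9 had 238 and 94.1 CPM in KO 5 and 316 and 359 CPM in KO 7. Lyz2 had 0.114 CPM in KO 5 and 35.4 CPM in KO 7, and Csf1r, Itgam, C1qa and C1qb had 0 in KO 5. Adgre1 had 2.65 CPM in KO 5, 6.26 CPM in KO 7 and 0 in every WT library. In KO 7, Itgam, C1qa and C1qb had 6.04, 7.35 and 6.38 CPM, against at most 0.157 CPM in WT. Csf1r had 0.125 CPM in KO 7, and in WT Csf1r and Lyz2 reached 3.21 and 21.4 CPM. The 6 NK and ILC1 markers summed to 177 to 599.7 CPM in KO and 49.2 to 247 CPM in WT. Ncr1 was the largest part in each KO library, at 148 to 447 CPM, against 0.0391 to 198 CPM in WT. Ccl5 reached 105 CPM in KO and 12.3 CPM in WT, Gzma 59.4 and 0.0414 CPM and Tbx21 11.3 and 3.64 CPM. Klrb1c had 13.7 to 46.2 CPM in KO and 24.4 to 48.2 CPM in WT, and Eomes at most 0.0571 CPM in any library. The 7 epithelial markers summed to 1318 CPM in WT 2 and at most 28.6 CPM elsewhere. The 6 stromal markers summed to 407 CPM in KO 7, 786 CPM in WT 1 and 14 to 115 CPM in the rest. The 7 T cell markers summed to 0.038 to 125 CPM in KO and 0.786 to 66.8 CPM in WT, highest in KO 5 and WT 3, with Cd3e at or under 0.165 CPM in every library. The 6 B and plasma cell markers summed to 21.3 to 90 CPM in KO and 8.92 to 136 CPM in WT, highest in KO 5 and WT 1. Igkc had 114 CPM in WT 1 and Jchain 58.9 CPM in KO 5. The part of such cells in the levels of the members was not tested. In such bulk samples, fewer cells of a type and less RNA per cell cannot be told apart.

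The promoters of the members show which stress element each carries, and 7 of them are printed here because they carry a named element or belong to a member discussed later. RefSeq windows (GRCm38.p6) from 250 bases before to 50 bases after a start site were at hand for 30 of the 37 members, in 38 windows. The members not matched were Hsp90aa1, Hspa8, Hsp90ab1, Bag4, Hspa13, Hspa9 and Hsf1. A heat shock element of 2 units, GAANNTTC or TTCNNGAA, stood in 15.1% of all 32851 promoter windows and in 34.2% of the member windows (13 of 38). An element of 3 units, the same pattern with another inverted unit after the next 2 bases, contains the shorter one and stood in 0.603% of all windows and in 7 member windows, of Chordc1, Dnajb6, Hspd1, Hspe1 and Hsph1. Both forms were read on both strands. By class, 8 of 11 heat-inducible, 1 of 6 constitutive, 0 of 5 endoplasmic reticulum, 2 of 3 mitochondrial and 0 of 4 restricted members with a window carried at least the 2-unit form. The endoplasmic reticulum stress element (CCAAT, then any 9 bases, then CCACG), read on both strands, stood in 0.119% of all windows and in the windows of Hspa5, Hsp90b1 and Dnajc3. It was added after the first results were known. A match describes the letters of a window and is not a measured binding site. In the windows below, which run 5′ to 3′ on the strand of the gene, capitals mark the heat shock element, or in Hspa5 the endoplasmic reticulum stress element, and Hspa2 has no capitals because neither was found.
Hspa1a (chr17:34972107-34972406, minus strand): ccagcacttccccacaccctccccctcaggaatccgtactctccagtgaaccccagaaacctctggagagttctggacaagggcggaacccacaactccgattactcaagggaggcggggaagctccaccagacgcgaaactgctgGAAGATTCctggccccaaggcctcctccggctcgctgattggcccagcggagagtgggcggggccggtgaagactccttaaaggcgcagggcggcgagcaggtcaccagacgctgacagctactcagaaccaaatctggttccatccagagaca
Hspa1b (chr17:34959189-34959488, minus strand): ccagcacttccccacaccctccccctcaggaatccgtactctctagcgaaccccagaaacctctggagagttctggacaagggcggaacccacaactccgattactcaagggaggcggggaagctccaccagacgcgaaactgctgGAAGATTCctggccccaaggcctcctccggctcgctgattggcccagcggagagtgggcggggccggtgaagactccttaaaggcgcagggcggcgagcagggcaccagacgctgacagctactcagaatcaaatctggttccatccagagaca
Dnaja1 (chr4:40722218-40722517, plus strand): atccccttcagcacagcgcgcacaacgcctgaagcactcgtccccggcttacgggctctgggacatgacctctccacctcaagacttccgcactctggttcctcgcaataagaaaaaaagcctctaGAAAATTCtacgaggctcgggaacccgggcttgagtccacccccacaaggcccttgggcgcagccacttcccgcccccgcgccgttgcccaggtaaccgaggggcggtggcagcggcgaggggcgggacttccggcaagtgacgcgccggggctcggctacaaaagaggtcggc
Dnajb6 (chr5:29735648-29735947, plus strand): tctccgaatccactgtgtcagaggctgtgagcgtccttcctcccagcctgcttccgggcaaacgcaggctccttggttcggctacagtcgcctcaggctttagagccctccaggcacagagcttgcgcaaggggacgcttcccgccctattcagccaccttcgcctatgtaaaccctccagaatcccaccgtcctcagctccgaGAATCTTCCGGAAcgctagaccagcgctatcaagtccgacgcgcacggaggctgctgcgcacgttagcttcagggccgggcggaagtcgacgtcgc
Hspe1 (chr1:55087898-55088197, plus strand): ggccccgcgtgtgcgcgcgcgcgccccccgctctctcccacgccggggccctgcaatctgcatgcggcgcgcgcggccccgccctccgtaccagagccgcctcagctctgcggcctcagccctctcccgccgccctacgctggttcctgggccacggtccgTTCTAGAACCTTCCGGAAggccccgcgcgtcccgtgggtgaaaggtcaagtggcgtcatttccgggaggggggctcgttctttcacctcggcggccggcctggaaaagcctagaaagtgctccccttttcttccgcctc
Hspa5 (chr2:34771840-34772139, plus strand): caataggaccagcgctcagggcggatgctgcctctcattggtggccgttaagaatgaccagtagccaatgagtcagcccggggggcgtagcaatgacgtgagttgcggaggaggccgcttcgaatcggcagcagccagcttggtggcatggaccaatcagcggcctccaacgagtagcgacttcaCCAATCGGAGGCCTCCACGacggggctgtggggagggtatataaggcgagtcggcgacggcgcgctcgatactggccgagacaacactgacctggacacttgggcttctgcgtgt
Hspa2 (chr12:76404120-76404419, plus strand): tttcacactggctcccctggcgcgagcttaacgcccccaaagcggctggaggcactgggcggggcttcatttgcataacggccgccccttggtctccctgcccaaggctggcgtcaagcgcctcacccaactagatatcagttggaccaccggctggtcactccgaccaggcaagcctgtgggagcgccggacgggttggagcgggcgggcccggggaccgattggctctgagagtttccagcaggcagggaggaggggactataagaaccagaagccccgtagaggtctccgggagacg
The windows of Hspa1a and Hspa1b differ at 4 of 300 bases. The run of units printed for Hspe1 lies between the start sites used for Hspe1 and Hspd1, which are transcribed away from each other, and it falls in the window of Hspd1 on the opposite strand. Dnaja1 has further windows that do not hold the element, and Dnajb6 has another that holds it too. Gene coordinates given later are those of RefSeq on the same build.

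Across the whole module, no member passed the test. With edgeR's quasi-likelihood test and Benjamini-Hochberg adjustment over all 8878 tested genes, 0 of 34 members had an adjusted p under 0.05, against 0% of all tested genes. An unadjusted p under 0.05 was found for 2 of 34 members, Hspa2 and Dnaja1, against 4.1% of all tested genes. Fitted log2 folds (KO over WT) were above 0 for 18 members and below 0 for 16, against 49.1% of all tested genes below 0, with a median of 0.03 for the members and 0.02 for all tested genes. DESeq2, run on the same genes, had 1 of 34 members under an adjusted p of 0.05, Hspa2, against 1.03% of all tested genes. The KO libraries lay wholly below the WT libraries for 3 members, Hspa2, Dnaja1 and Dnajb6, while 2.1% of all tested genes did so. Without scaling factors this held for 1 member, Hspa2, against 1.7% of all tested genes. They lay wholly above the WT libraries for 0 members, with 2.26% of all tested genes, and 4.36% of all tested genes were separated in either direction. Groups of 4 libraries from 4 mice stand behind these values, 1 library per mouse, so differences between mice and between library preparations are not separated.

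**Figure D1:**
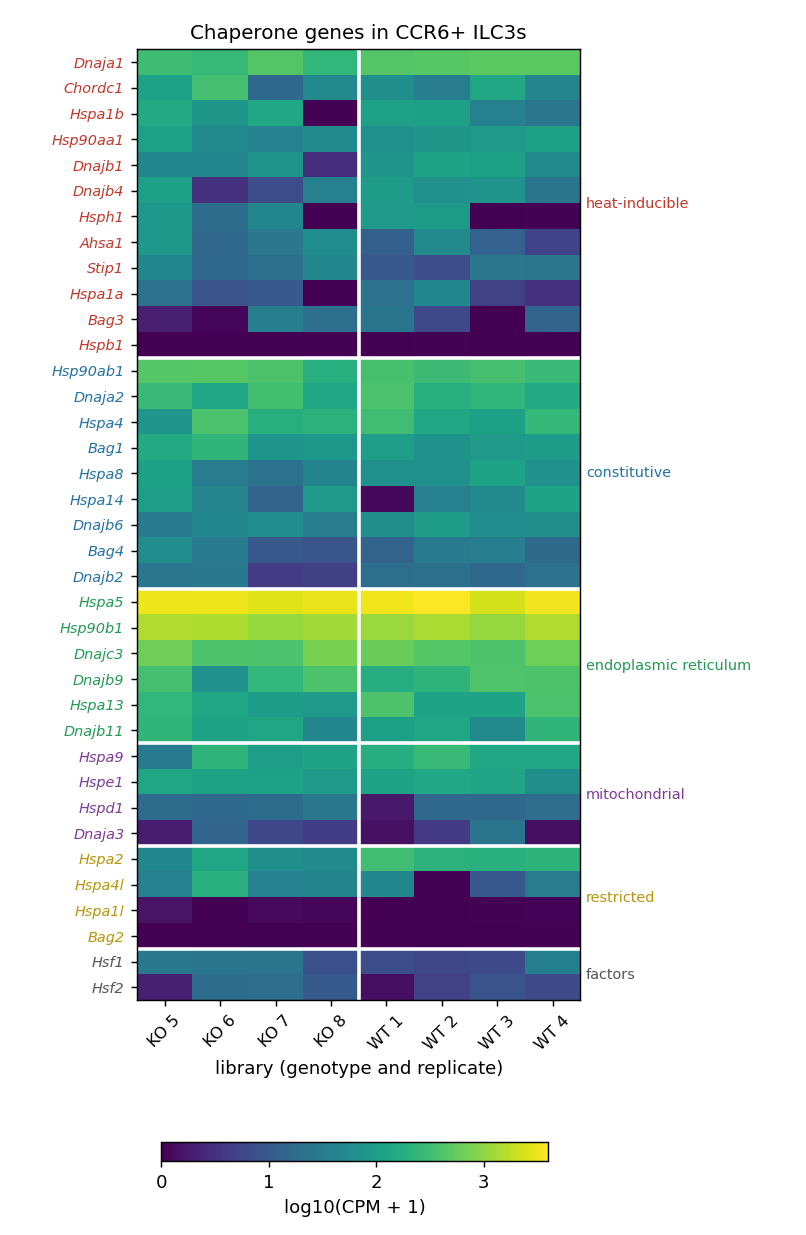
Level of each of the 37 members (rows, by class and by mean level within it) in the 4 Zbtb46 KO and 4 WT libraries (columns), as log10(CPM + 1) in colour. The row of Hspa5 is brightest in all 8 libraries, and several heat-inducible rows, such as those of Hspa1b and Hsph1, are dark in single libraries such as KO 8.

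Endoplasmic reticulum chaperones were the most abundant members, and none differed past the test between genotypes. Per kb of exon they made up 60.7% to 74.6% of the summed level of all members in KO libraries and 60.5% to 71.7% in WT libraries. Their 6 fitted log2 folds ran from -0.84 to 0.05, with 3 on either side of 0 and 0 past the test. Hspa5, which encodes BiP, the HSP70 of the endoplasmic reticulum, which also holds its stress sensors inactive (chr2:34772090-34776529), had the highest level per length of all members, at 717 ± 65.7 CPM per kb in KO and 773 ± 160.1 CPM per kb in WT (SD, n = 4 each). In CPM it stood at 3228, 3211, 2630.3 and 3052 in KO 5 to 8, against 3356, 3964, 2338 and 3409 in WT 1 to 4. The WT libraries alone span the full range of the KO libraries, and the log2 fold of -0.11 had a 95% interval from -0.54 to 0.32.

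Hsp90b1, the HSP90 of the endoplasmic reticulum (GRP94), which folds integrins and Toll-like receptors (chr10:86690841-86705444), was second per length. It had 1475, 1443, 1106 and 1249.9 CPM in KO libraries, against 1150, 1389, 1064 and 1482 CPM in WT libraries, with a log2 fold of 0.05 (95% interval -0.36 to 0.47). Per length, Hspa5 exceeded Hsp90b1 in all 8 libraries, and the groups of both genes overlapped. Dnajc3, a J-domain partner of BiP that also restrains the kinase PERK (chr14:118937932-118981702), had 647, 386, 373 and 723 CPM in KO libraries, against 621, 443, 391 and 636 CPM in WT libraries. Each group held a pair of libraries above 600 CPM and a pair below 450 CPM, and the log2 fold was 0.03 (95% interval -0.61 to 0.66). For these 3 genes the interval lay within a 2-fold change in either direction, as it did for 5 of the 34 tested members and for 721 of all 8878 tested genes.

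The remaining luminal partners varied more from mouse to mouse. Dnajb9 (ERdj4), a J-domain protein that holds BiP on the sensor IRE1, had 336, 64.4, 242 and 381 CPM in KO libraries, against 175, 221, 402 and 393 CPM in WT libraries. KO 6 was the low library, and the ranges overlapped. Dnajb11 (ERdj3), which delivers nascent chains to BiP, had 226, 118, 135 and 44.6 CPM in KO libraries, against 108, 129, 49.8 and 224 CPM in WT libraries, again with full overlap. Hspa13, a small HSP70-like ATPase of microsomes and the member of its class with the smallest p, had 244, 145, 93.4 and 83.6 CPM in KO libraries, against 387, 121, 121 and 381 CPM in WT libraries. WT 1 and WT 4 stood well above WT 2 and WT 3, and the log2 fold of -0.84 ± 0.508 (SE) had an edgeR unadjusted p of 0.131 and an adjusted p of 1.

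No heat-inducible member passed the test, and several were near 0 in some libraries of a genotype and abundant in others. Members of other classes had such libraries too. Hspa14 of the constitutive class had 0.196 CPM in WT 1 and 121 CPM in WT 4, and Hspa4l of the restricted class 0.0414 CPM in WT 2 and 45.4 CPM in WT 1. Of the 11 tested, 5 had fitted values above 0 and 6 below, with a median log2 fold of -0.29 and 0 past the test. Their standard errors had a median of 0.96 on the log2 scale, against 0.39 for the endoplasmic reticulum members and 1.12 for all tested genes. Hspb1, the small heat shock protein HSP27, did not pass the filter, with 0 counts in the KO libraries and 1 count in WT 2. Summed over the class, the libraries had 1064, 829, 834 and 499 CPM in KO and 993, 1066, 975 and 778 CPM in WT.

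Dnaja1, a J-domain protein that works with cytosolic HSP70 (chr4:40722468-40734965), was the most abundant heat-inducible member per length, at 35.6 ± 10.2 CPM per kb in KO and 54.2 ± 2.67 CPM per kb in WT. It had 297, 259, 433 and 239 CPM in KO libraries, against 437, 465, 484 and 487 CPM in WT libraries. All WT values lay within a narrow band, and KO 7 came close below it. The log2 fold was -0.61 with a 95% interval from -1.13 to -0.09, an edgeR unadjusted p of 0.0259 and an adjusted p of 1, so it did not pass. The separation of the groups rests on the scaling, since without scaling factors the highest KO library was at 473 CPM and the lowest WT library at 444 CPM. With any 1 library left out the log2 fold stayed between -0.82 and -0.51. Of the 50-base stretches of its longest transcript, 28.8% also occur in transcripts of 6 other genes, which may share its reads.

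The classical stress HSP70 genes Hspa1a (chr17:34969359-34972156) and Hspa1b (chr17:34956429-34959238) encode nearly the same protein, and 58.8% of the 50-base stretches of Hspa1a occur in Hspa1b, so reads of the pair may not be fully separated. They are given by library, with Hsph1 and Dnajb1, because their values stood out once seen. Hspa1b had 157, 78.4, 138 and 0.0626 CPM in KO libraries, against 113, 105, 35.7 and 24.9 CPM in WT libraries. Hspa1a had 21.6, 7.44, 9.2 and 0 CPM in KO libraries, against 21.3, 46.3, 4.07 and 2.24 CPM in WT libraries. KO 8 was nearly empty of both, with 0 counts of Hspa1a and 2 counts of Hspa1b, while the other 3 KO libraries lay within or above the WT range. Summed into 1 row, the pair had 179, 85.9, 148 and 0.0626 CPM in KO and 134, 152, 39.8 and 27.1 CPM in WT, a log2 fold of 0.23 with a 95% interval from -2.58 to 3.03.

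Other inducible genes were also near 0 in single libraries. Hsph1, an HSP110 that resets HSP70 by exchanging its nucleotide, had 81.0, 17.5, 43.6 and 0.0313 CPM in KO libraries, against 83.8, 90.1, 0 and 0.0393 CPM in WT libraries. Here KO 8, WT 3 and WT 4 were the empty ones, with 1, 0 and 1 counts, so low libraries occurred in both genotypes. Dnajb1 (HSP40), the J-domain partner of inducible HSP70, had 46.1, 45.3, 71.4 and 1.94 CPM in KO libraries, against 74.3, 119, 111 and 49.8 CPM in WT libraries. KO 8 was again lowest, and KO 7 reached into the WT range, for a log2 fold of -1.1 with a 95% interval from -2.95 to 0.74. In KO 8, Hsp90aa1 stood at 52.2 CPM and Bag3 at 19.1 CPM, both within the range of the other KO libraries, so not every inducible member was low there.

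**Figure D2:**
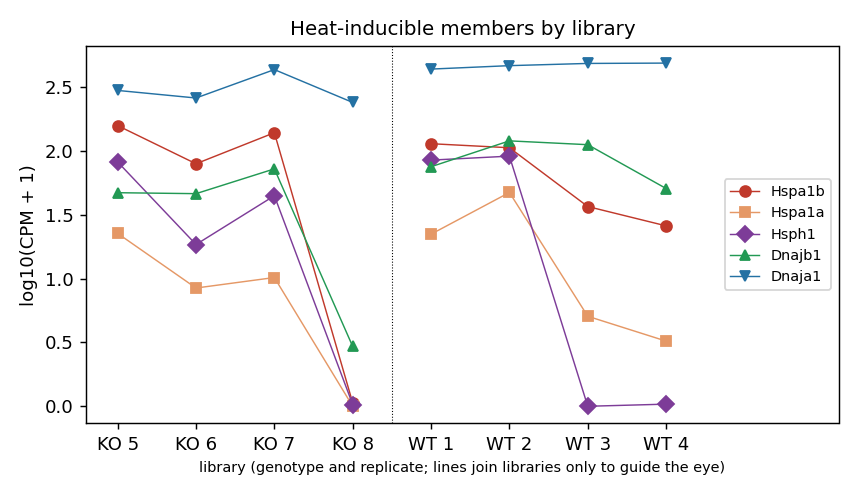
Levels of 5 heat-inducible members as log10(CPM + 1) in each Zbtb46 KO and WT library; lines only join points of 1 gene. Hspa1a, Hspa1b and Hsph1 drop to about 0 in KO 8 and Hsph1 also in WT 3 and WT 4, while Dnaja1 ranges from 239 CPM to 487 CPM.

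The other 6 heat-inducible members had overlapping groups, with edgeR unadjusted p from 0.268 to 0.87 and adjusted p of 1. Hsp90aa1, the inducible cytosolic HSP90, ranged from 38.3 to 112 CPM in KO and from 62.6 to 107 CPM in WT, but 58.5% of its 50-base stretches occur in other genes. Dnajb4 ranged from 2.28 to 106 CPM in KO and 23.5 to 95.9 CPM in WT, and the HSP70 exchange factor Bag3 from 0.114 to 33.2 CPM in KO and 0 to 23.8 CPM in WT. The HSP90 co-chaperones Chordc1, Ahsa1, which speeds up its ATPase, and Stip1, which links HSP70 to HSP90, had positive fitted log2 folds of 0.9, 1.13 and 0.93. Their intervals ran from -0.95 to 2.75, -1.02 to 3.28 and -1.13 to 2.99, and each holds 0. Without WT 2 the log2 fold of Ahsa1 was 2.22. Chordc1 also reached 337 CPM in KO 6 and 15.5 to 115 CPM in the other KO libraries, against 32.8 to 143 CPM in WT.

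Constitutive members were led per length by Hsp90ab1 and Bag1 and did not pass the test in either direction. Of the 9 members, 5 had fitted values above 0 and 4 below, with a median log2 fold of 0.04. Hsp90ab1, the constitutive cytosolic HSP90 (chr17:45567778-45573261), had 443, 467, 393 and 187 CPM in KO libraries, against 356, 293, 347 and 269 CPM in WT libraries. KO 5, 6 and 7 lay above all WT libraries and KO 8 below them all, and the log2 fold was 0.24 (95% interval -0.42 to 0.89). Bag1, a nucleotide exchange factor that also links HSP70 to the proteasome (chr4:40936398-40948294), had the smallest p of the class. It stood at 155, 226, 74.3 and 83.2 CPM in KO libraries, against 102, 68.3, 83.3 and 95.4 CPM in WT libraries. KO 5 and KO 6 were above every WT library and the other KO libraries within their range, for a log2 fold of 0.62 ± 0.417 (SE) and an edgeR unadjusted p of 0.165 (adjusted p 1).

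Hspa4, an HSP110 exchange factor, had 75.3, 373, 182 and 201 CPM in KO libraries, against 311, 141, 110.3 and 245 CPM in WT libraries. Dnaja2, a J-domain protein that pairs with constitutive HSP70, had 276, 129, 319.7 and 144 CPM in KO libraries, against 384, 179, 232 and 156 CPM in WT libraries. Both genes varied several-fold within each genotype, and their log2 folds of 0.04 and -0.13 had 95% intervals from -1.05 to 1.13 and from -1.02 to 0.75. Hspa8, the constitutive cytosolic HSP70 (HSC70), ranged from 21.7 to 110 CPM in KO and from 63.9 to 120.5 CPM in WT, and per length it ranked 18 of the 37 members. Of its 50-base stretches, 74.8% also occur in 13 other genes, most of all in Gm15459, so its level depends on how reads with several matching places were counted, a step not stated in the labels. Hspa14, Dnajb2 and Bag4 had overlapping groups, with fitted log2 folds of 0.22, -0.36 and 0.17. Hspa14 ranged from 14.1 to 103 CPM in KO and from 0.196 to 121 CPM in WT.

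Dnajb6, a J-domain protein that keeps aggregation-prone proteins soluble (chr5:29735898-29786478), was the only constitutive member whose groups did not overlap. It had 30.3, 44.3, 56.9 and 31.1 CPM in KO libraries, against 60.2, 95.2, 57.4 and 58.8 CPM in WT libraries. The gap between KO 7 and WT 3 was small, and without scaling factors KO 7 exceeded WT 3, at 62.1 and 54.9 CPM. The log2 fold was -0.74 with a 95% interval from -1.85 to 0.37, an edgeR unadjusted p of 0.169 and an adjusted p of 1. Transcripts of 10 other genes hold 42.8% of its 50-base stretches.

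Mitochondrial chaperones showed no difference past the test. Hspe1, the HSP10 lid of the mitochondrial chaperonin (chr1:55088148-55091317), had 135, 119, 114 and 83.4 CPM in KO libraries, against 118, 136, 127 and 60.1 CPM in WT libraries, with KO 8 and WT 4 lowest. Its log2 fold was 0.03 with a 95% interval from -0.76 to 0.83. Hspd1, the HSP60 barrel that Hspe1 closes, ranged from 15.1 to 26.2 CPM in KO and from 0.744 to 18.4 CPM in WT. Per kb of exon, Hspe1 had 76.7 CPM in KO and 74.8 CPM in WT and Hspd1 7.27 CPM in KO and 4.62 CPM in WT. Of the 50-base stretches of each gene, 44.8% occur elsewhere, in Hspd1 mostly in a pseudogene, so the ratio depends on how such reads were counted. Hspa9 (mortalin), the HSP70 that pulls proteins into the matrix, had 30.2, 221, 99.9 and 119 CPM in KO libraries, against 176, 274, 144 and 141 CPM in WT libraries. KO 5, 7 and 8 lay below every WT library and KO 6 within their range, and the log2 fold of -0.64 ± 0.522 (SE) had an edgeR unadjusted p of 0.245 and an adjusted p of 1. Dnaja3, its J-domain partner, stayed at or under 23.2 CPM in every library.

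The member with the smallest p was Hspa2, of the restricted class. This HSP70 is best known for its high level in spermatocytes, where mouse males need it for meiosis (chr12:76403812-76406938). It had 47.1, 129, 61.4 and 51.0 CPM in KO libraries. The WT libraries had 309.8, 207, 189 and 212 CPM. The highest KO library, KO 6, lay below the lowest WT library, WT 3, and this order held under all 3 scalings tried, with 127 against 181 CPM without scaling factors. The means were 72.2 ± 38.5 CPM in KO and 229.6 ± 54.3 CPM in WT (SD, n = 4 each). The fitted fold was 0.314 with a 95% interval from 0.172 to 0.575, the edgeR unadjusted p was 0.00163 and the adjusted p 0.515, so the gene did not pass. DESeq2 gave an adjusted p of 0.0186 and limma-voom with quality weights 0.0942. The adjusted p over the alternatives ran from 0.0186 to 0.975 and the log2 fold from -2.11 to -1.35, below 0 in each of 17 settings. Without WT 1 and KO 6, the libraries far from their groups on the first component, the log2 fold was -1.93 with an edgeR adjusted p of 0.335.

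Hspa2 does not share 50-base stretches with any other annotated transcript, and its RefSeq span meets only the end of the noncoding gene 4930426I24Rik, which had 2.24 CPM in KO 6 and 0 in the other 7 libraries. The upstream neighbour Zbtb1 had 248, 3.34, 63.4 and 87.8 CPM in KO libraries, against 31.5, 91.5, 175 and 141 CPM in WT libraries, with overlap, and the downstream neighbour Ppp1r36 had 0 in all 8. Per length, Hspa2 stood at 27.3 ± 14.6 CPM per kb in KO and 86.8 ± 20.5 CPM per kb in WT, rank 9 among the 37 members. The summed NK and ILC1 markers were above all WT libraries in KO 5, 7 and 8 and within the WT range in KO 6. In the KO libraries Ncr1 was the largest part of this sum. Klrb1c overlapped between the groups, Eomes was at most 0.0571 CPM in any library, and Ccl5, Gzma and Tbx21 were uneven among KO libraries. The sum therefore need not follow the number of NK cells or ILC1s. Summed macrophage and neutrophil markers, mostly S100a8 and S100a9, were high in KO 5 and KO 7. The part of either marker list in the Hspa2 values was not tested. Without KO 5 and KO 7, a setting chosen after the data were seen, the log2 fold was -1.35 (edgeR unadjusted p 0.0256, adjusted p 0.975).

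**Figure D3:**
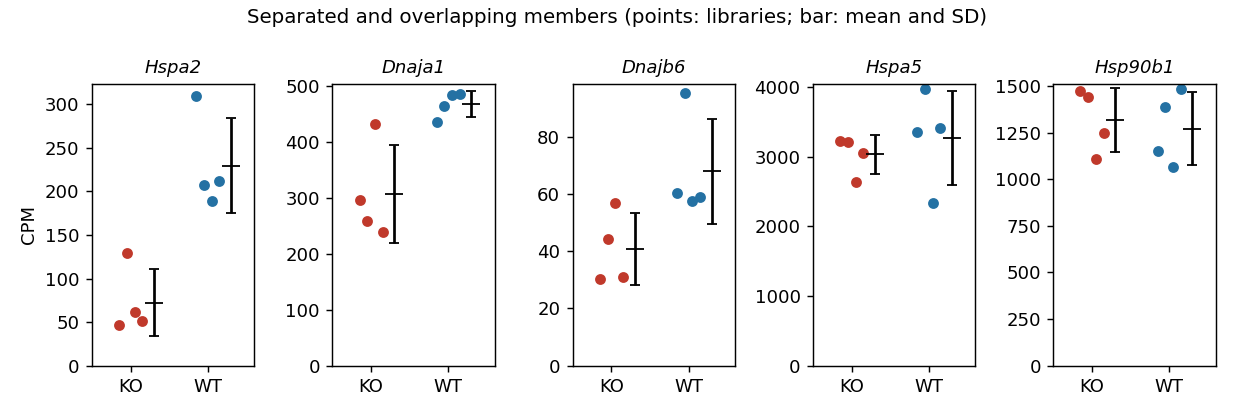
CPM of Hspa2, Dnaja1, Dnajb6, Hspa5 and Hsp90b1 in the Zbtb46 KO (left) and WT (right) libraries, with the mean and SD of 4 libraries beside the points and each vertical axis starting at 0. The KO points lie below the WT points for Hspa2, and narrowly so for Dnaja1 and Dnajb6 (groups that overlap without scaling factors), while those of Hspa5 and Hsp90b1 interleave.

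The other restricted members were low or uneven. Hspa4l, an HSP110 of the testis, had the highest fitted log2 fold of the module, 1.8, with a 95% interval from -1.12 to 4.72. It ranged from 35.4 to 184 CPM in KO and from 0.0414 to 45.4 CPM in WT, and KO 6 alone exceeded 100 CPM. Without KO 6 the log2 fold was 0.83, below those of Ahsa1 (1.43), Stip1 (1.17) and Hsf2 (1.13) in that setting. Hspa1l, an HSP70 whose expression centres on spermatids and which lies next to Hspa1a, did not pass the filter, with 31 counts over the KO libraries (19, 0, 8 and 4) and 3 over the WT libraries (0, 0, 1 and 2). Of its 50-base stretches, 71.4% occur in Gm10501 as well. Bag2 had 0 counts in all 8 libraries.

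Both heat shock factors were low per length, taken over the merged exons of all isoforms, and had overlapping groups. Hsf2, which has the smaller p of the pair, had 1.06, 17.8, 18.6 and 9.42 CPM in KO libraries, against 0.352, 3.97, 7.39 and 5.93 CPM in WT libraries. KO 6, 7 and 8 lay above every WT library, but KO 5 lay below 3 of them, and the log2 fold was 1.41 ± 1.42 (SE) with an edgeR unadjusted p of 0.345 and an adjusted p of 1. Hsf1, the main switch of the heat shock response, ranged from 6.63 to 27.3 CPM in KO and from 4.76 to 34.4 CPM in WT. Its log2 fold was 0.67 with a 95% interval from -1.88 to 3.22, and 1.87 without WT 4. HSF1 is controlled mostly after translation, so its transcript is no measure of its activity.

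**Figure D4:**
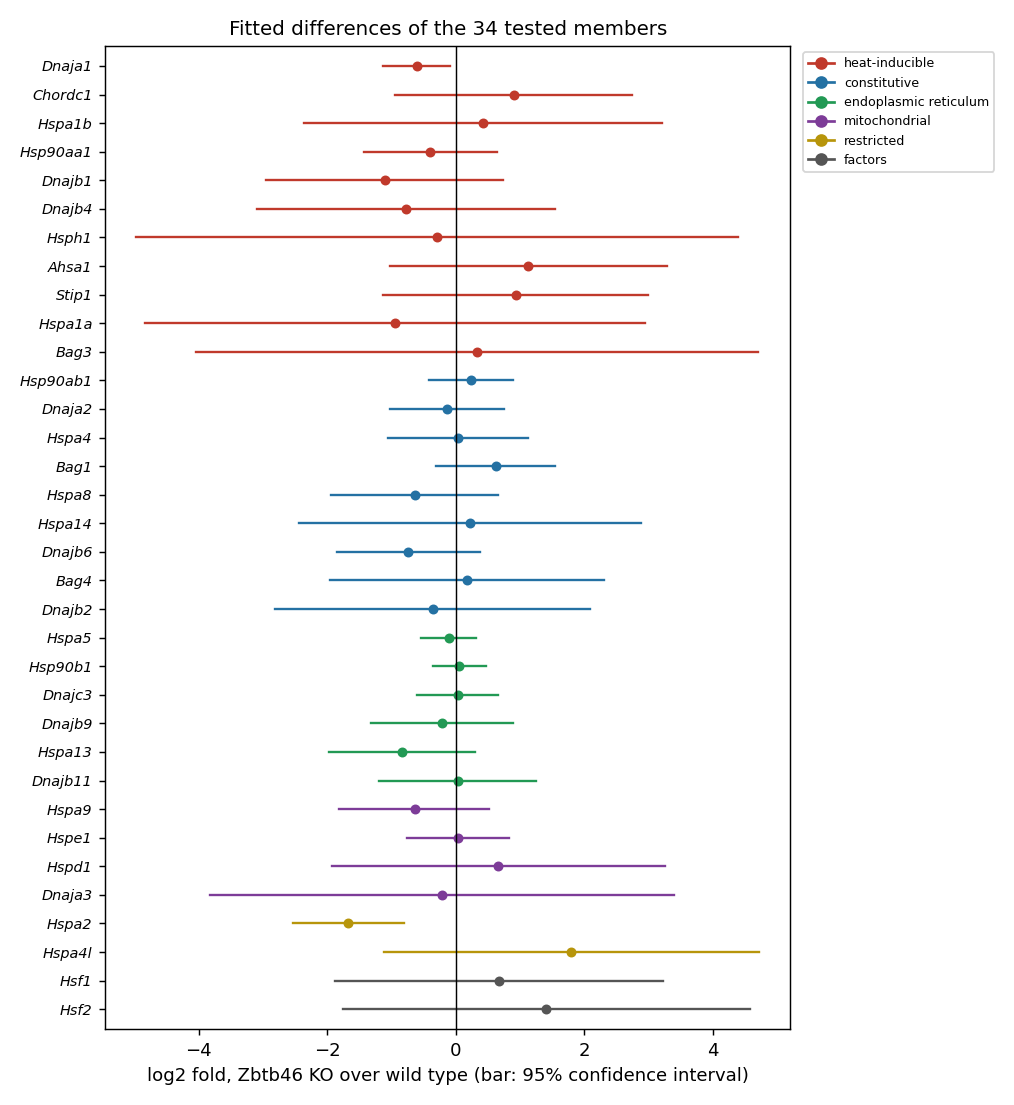
Fitted log2 fold (Zbtb46 KO over WT) of the 34 tested members, with 95% confidence intervals from edgeR and colours for the classes. The intervals of Hspa2 and Dnaja1 alone exclude 0, without adjustment for the number of genes, and the shortest belong to Hspa5 and Hsp90b1 of the endoplasmic reticulum.

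The balance of inducible against constitutive members was read as the share of the heat-inducible members in the summed CPM of both classes. The share was 45.5%, 37.7%, 43.7% and 38.9% in KO libraries and 43.1%, 53.3%, 48.1% and 42.6% in WT libraries, with means of 41.5% ± 3.73 in KO and 46.8% ± 5.01 in WT (SD, n = 4 each). The groups overlapped, and no test was made on a sum of chosen genes. KO 8, with almost no Hspa1a, Hspa1b or Hsph1, was not the lowest library, since its constitutive sum was the lowest of all too, at 783 CPM against 1074 to 1370.1 CPM in the other KO libraries and 934 to 1309 CPM in WT. Without the member of highest CPM in each class the shares were 38.5% ± 7.24 in KO and 38.4% ± 8.85 in WT, so the gap between the means was there only with Dnaja1 and Hsp90ab1 counted. An index was also made from each member's CPM relative to its own mean over the libraries, taking the median per class. The heat-inducible median, as a percentage of both medians together, was 46.7% ± 10.2 in KO and 46.6% ± 12.7 in WT. This index is not a share of summed CPM. Summed over all 37 members, chaperone reads made up 0.69% to 0.88% of the scaled total in KO libraries and 0.69% to 0.89% in WT libraries.

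The 6 further lists of the same pathways were read from the same fit, and none of their genes passed the test. Of the 14 subunits of the cytosolic chaperonin CCT and of prefoldin, which fold actin and tubulin, 6 had fitted values above 0 and 8 below, with a median log2 fold of -0.05. Cct7, a ring subunit of CCT, had 214, 145, 163 and 203 CPM in KO libraries, against 97.1, 85.0, 78.6 and 78.0 CPM in WT libraries. All KO libraries lay above all WT libraries, at a fold of 2.14 with a 95% interval from 1.39 to 3.3, an edgeR unadjusted p of 0.00274 and an adjusted p of 0.515. The subunit with the next smallest p, Cct5, had 260.3, 86.5, 229 and 136 CPM in KO and 217, 184, 451 and 164 CPM in WT (edgeR unadjusted p 0.267, adjusted p 1), so the fitted log2 folds of the 2 subunits, 1.1 and -0.51, lay on opposite sides of 0.

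Among 23 tested of 29 other HSP70 and HSP90 co-chaperones, 17 had fitted values above 0 and 6 below, with a median of 0.55 beside 0.02 for all tested genes. The share below 0 was 49.1% over all tested genes. Dnajc10, a J-domain disulfide reductase of the endoplasmic reticulum, had 119, 347, 68.0 and 196 CPM in KO and 50.3, 121, 59.1 and 68.3 CPM in WT, with an edgeR unadjusted p of 0.0317 and an adjusted p of 1. Dnajb5 had 0 to 0.532 CPM in KO and 0 to 7.86 CPM in WT. Dnajc2 had 35.9 to 55.3 CPM in KO and 23.3 to 29.5 CPM in WT, without overlap (edgeR unadjusted p 0.214). It was the only 1 of the 23 with separated groups, against 4.36% of all tested genes in either direction. Of 8 tested mitochondrial proteases and chaperones 3 had values above 0 and 5 below (median -0.27), led by the inner membrane protease Yme1l1 with 144, 134, 91.4 and 124 CPM in KO and 63.8, 77.9, 61.5 and 108 CPM in WT (edgeR unadjusted p 0.082, adjusted p 1). The next, the matrix protease subunit Clpp, ranged from 7.66 to 59.2 CPM in KO and from 14.1 to 158 CPM in WT.

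Of 20 tested genes of the unfolded protein response, which controls the endoplasmic reticulum chaperones, 13 had fitted values above 0 and 7 below, with a median of 0.07. Ern1, which encodes the sensor IRE1α, had 59.1, 57.9, 45.3 and 82.0 CPM in KO, against 96.3, 189, 107 and 137 CPM in WT. The KO libraries lay below the WT libraries, with a fold of 0.462, an edgeR unadjusted p of 0.0136 and an adjusted p of 0.898. Eif2ak3, which encodes the sensor PERK, had 1.11, 93.9, 50.7 and 12.1 CPM in KO and 0, 4.84, 1.44 and 0 CPM in WT, with an edgeR unadjusted p of 0.0579 and an adjusted p of 1. In the 7 tested genes of oxidative and metal stress, 4 had values above 0 and 3 below. The redox protein gene Txn1 had 898, 562, 1012 and 904 CPM in KO and 541, 554, 581 and 466 CPM in WT, overlapping only through KO 6 (edgeR unadjusted p 0.0128, adjusted p 0.885), and Gclc, of glutathione synthesis, 6.96 to 65.3 CPM in KO and 43.8 to 166 CPM in WT.

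Immediate early genes, which respond fast to many stimuli, had 4 of 14 fitted values above 0 and 10 below, with a median of -0.3. Of all tested genes 49.1% were below 0, with a median of 0.02. Fos had 314, 308, 411 and 273 CPM in KO, against 536, 489.5, 416 and 499.6 CPM in WT (edgeR unadjusted p 0.0203, adjusted p 1). Its groups did not overlap, but without scaling factors the highest KO library was at 449 CPM and the lowest WT library at 398 CPM. Egr1 had 26.7, 12.1, 31.4 and 32.5 CPM in KO, against 97.4, 109.8, 75.8 and 16.5 CPM in WT, with WT 4 inside the KO range (edgeR unadjusted p 0.0493, adjusted p 1). Zfp36 had 0.949 to 23.3 CPM in KO and 25.9 to 101 CPM in WT, without overlap under TMM scaling (edgeR unadjusted p 0.0653). Its order under other scalings was not examined. KO libraries lay wholly below WT libraries for 2 of the 14 genes, against 2.1% of all tested genes. Summed over the list, KO libraries had 2028, 1935, 2388 and 1571 CPM and WT libraries 2725, 2735, 1976 and 1869.9 CPM. These sums overlapped between the groups.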

How the data were processed

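RNA was sequenced from sorted ILC3s of 8 mice with the SMARTer Ultra Low Input RNA Kit V4, per the labels' protocols. CASAVA 1.8.2, STAR 2.3.0 and mm10 are named in the submitters' processing notes. How reads were counted (software, gene models, strand, multiple matches) was not given in the sources used here. Overlapping genes and genes with copies may therefore share reads. The authors deposited whole-number counts per Entrez gene ID, without normalization, for 27179 rows. RefSeq names (GRCm38.p6) were matched to 25275 rows. The 1904 others held 0.303% of counts and stayed in the tests.

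Groups were taken from the sample titles. The KO and WT libraries were compared with edgeR 4.0.16 (R 4.3.3) by its quasi-likelihood test on counts, after TMM scaling and filterByExpr on the groups, with adjustment by Benjamini-Hochberg at 0.05 over 8878 genes. The p-values measure the spread between libraries, 1 per mouse. Standard errors and intervals came from each gene's F statistic. CPM used the TMM-scaled totals of tested genes, and exon lengths and shared 50-base stretches came from GENCODE M21. Exon lengths were those of the merged exons of all isoforms, which can far exceed 1 transcript. For Hsf1 and Hsf2 they were 7099 and 9606 bases, against 2104 and 2604 bases in the longest coding transcript. Levels and ranks per length depend on this choice. Alternatives were RLE and no scaling, DESeq2 1.42.0, limma 3.58.1 (voom with quality weights), no filter, at least 5 CPM in at least 4 libraries, thinning to the smallest total, and libraries left out. The script was tested on simulated data. Its pass condition covered only a large simulated fold at a set spread, so it does not measure the power of the test at the spread of these data.

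The members and lists were chosen with earlier results of these data known. Values in every library are given for members with a mean of at least 100 CPM, for members whose groups did not overlap and for the smallest p of each class. Of each other list, the 2 genes with the smallest p are named, and also Dnajc2 and Zfp36, whose groups did not overlap. 1 item of the genotype and marker description is not reported here.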

Additional observations from a re-analysis of the deposited data

Results flagged for a closer look

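Within each genotype, the highest or lowest of 4 libraries was compared with its nearest neighbour, as a share of the range of the group. Of 68 groups (34 members in KO and in WT), 5 had a library that stood apart, where chance gives about 3.4. Hspa4l had 184 CPM in KO 6, and the next KO library had 41.4 CPM. Hspa8 had 120.5 CPM in WT 3, and the next WT library had 70.0 CPM. Dnaja3 had 23.2 CPM in the same library, WT 3, with 3.06 CPM in the next WT library. Dnajb6 had 95.2 CPM in WT 2, the library with most epithelial marker reads, and the next WT library had 60.2 CPM. Whether the epithelial reads bear on this value was not tested. Hsf1 had 34.4 CPM in WT 4, with 6.11 CPM in the next WT library. In each case it was the highest library of its group that stood apart, and 4 different libraries were involved.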

How the results depend on the processing

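No paired analysis was possible because the replicate numbers, 1 to 8, are not shared between the genotypes. Against 0 calls in the fit reported, DESeq2 had 49 genes higher and 42 lower, with 1 member called (Hspa2, adjusted p 0.0186). Without a filter, 1 gene was higher and 1 lower among 19290. With 1 library left out, 0 genes were higher and 0 to 2 lower, with 2 lower without KO 6, and 0 members were called. In place of the heat-inducible share, the index from medians of relative CPM was 46.7% in KO. The heat-inducible share in WT was 38.4% without the member of highest CPM in each class.

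Of 579 log2 folds of members under other settings, 525 kept their sign and their side of the threshold, 53 changed sign and 1 (Hspa2 with DESeq2) passed; 19 of 34 members never changed sign, and the fold of 12 moved by over 1.5 times when 1 library was left out. The cause of these changes was not tested. With limma-voom the log2 fold was -2.45 for Hspa1b, 1.69 for Hsph1, -0.09 for Chordc1, -0.16 for Hspa4, 0.002 for Dnaja2, -0.48 for Bag4, -0.11 for Dnajb11 and 0.58 for Dnaja3. Without WT 1 and KO 6 it was 0.48 for Hsph1, -0.27 for Chordc1, -0.11 for Hspa4, -0.05 for Hspa14, 0.38 for Dnaja2, -0.11 for Bag4 and -0.03 for Hsp90b1, while Dnajc3 at 0.25 and Dnaja3 at -1.5 kept their sign. Without KO 5 and KO 7, chosen after the data were seen, it was -0.83 for Hspa1b, -0.14 for Bag3, -0.28 for Bag4, -0.65 for Dnajb11, -0.12 for Hspe1 and 0.35 for Dnaja3. With the Hspa1a and Hspa1b counts summed, also chosen then, it was 0.23 for both. With 1 library left out, members whose sign changed ran from -0.64 to 1.09 (Bag3), -0.56 to 0.48 (Bag4), -0.19 to 1.52 (Chordc1), -0.38 to 0.19 (Dnaja2), -1.11 to 2.18 (Dnaja3), -0.37 to 0.45 (Dnajb11), -0.48 to 0.11 (Dnajb9), -0.16 to 0.17 (Dnajc3), -0.01 to 0.14 (Hsp90b1), -0.2 to 1.05 (Hspa14), -1.74 to 0.06 (Hspa1a), -0.4 to 0.33 (Hspa4), -0.17 to 0.15 (Hspe1) and -1.11 to 0.35 (Hsph1).

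Depth limits members with 0 counts to the floors given with the library totals. The labels name no molecular identifiers, so these floors cover counting error only.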
